A study of Drosophila melanogaster with 36 samples.

Results

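The genes described here are the glutathione transferases of Drosophila melanogaster whose symbols name a class and a number: every symbol in the count files that begins with Gst, then D, E, O, S, T or Z, then a digit. The rule found 35 of 17582 symbols: 11 of class D (delta), 14 of class E (epsilon), 3 of class O (omega), 1 of class S (sigma), 4 of class T (theta) and 2 of class Z (zeta). Members were taken by name and not by any measured value.

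Glutathione transferases join the tripeptide glutathione to reactive, mostly electrophilic compounds, which makes them easier to excrete, and some also act as peroxidases or isomerases. In insects the delta and epsilon classes are enlarged and are known for insecticide detoxification and for oxidative stress responses, in part under the transcription factor CncC, which the gene cnc encodes. CMIT/MIT, the agent studied here, is a biocide mixture of chloromethylisothiazolinone and methylisothiazolinone, compounds that react with thiols such as glutathione.

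The study measured RNA from whole wild-type flies (genotype WT) of both sexes, either kept in filtered air or exposed during 1 hour to 330 mg/m3 of CMIT/MIT aerosol, on days 1, 2 and 7. Sex, day and treatment made 12 groups of 3 libraries, 36 in all, read by 3' end sequencing of total RNA. Strain, age and the origin of the day count are unstated in the labels, and the series text states that not every fly survives this concentration, without saying whether survivors alone were sampled. No label states that replicates are separate cultures or flies, so the p-values given here reflect the spread between samples alone, which may be technical.

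Depth ranged from 4681333 to 15444994 counts in male and from 9525565 to 17182966 in female libraries, where 3 counts equal 0.175 to 0.641 CPM, a gene's counts scaled to a common library size. Transcripts of both sexes stood in 2 libraries, both exposed and of day 2 (the third male and the first female replicate), each with over 100 CPM of the male RNA roX1 and over 1000 CPM of the yolk protein gene Yp1. These are called the mixed libraries. Counts of members past the threshold and tests of named members that include them were repeated without them. Class, family and marker sums, overlaps between groups and tests of other glutathione genes are given with them included. Whole-fly RNA pools all tissues, so a lower level cannot be told apart between fewer cells of a type and less RNA per cell.

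Most members lie in tight groups on the dm6 assembly. All 11 class D genes sit within 20.85 kb of chromosome arm 3R (3R:12364776-12385624), and 10 of the 14 class E genes, GstE1 to GstE10, within 13.2 kb of arm 2R. The 3 class O genes lie within 5.982 kb of arm 3L (3L:8518885-8524866), together with sepia (se), an omega-type gene of eye pigment synthesis that the naming rule does not reach. GstZ1 and GstZ2 are neighbours on 3R (3R:9455517-9460652), as are GstT1 and GstT2 on 2R, whereas GstT3 and GstT4 lie on the X chromosome. All 35 are annotated as protein coding. GstE1 overlaps GstE10 on the opposite strand by 127 bases, GstT2 overlaps CG12926 by 223 bases, and GstO2 overlaps se by 61 bases. Because the strand setting of the counting is unstated, reads from such overlaps, and reads shared between close copies, may be split differently from their true origin.

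Levels spanned more than 3 orders of magnitude, with 1 gene far above the rest. GstD1, a delta enzyme known for DDT metabolism and for its use as an oxidative stress reporter, averaged 957 CPM over the 36 libraries (526 to 1598). Epsilon genes GstE12, at 309.9 CPM, and GstE9, at 172 CPM, ranked 2 and 4 in CPM, and GstS1, the sigma enzyme known as an abundant flight muscle protein, ranked 3 at 234 CPM. GstE11 averaged 133 CPM and GstT4 102 CPM. Per kilobase of annotated exon, GstD1 again ranked first at 1136 CPM per kb, GstE12 at 222 and GstE9 at 218 came next, and GstS1 ranked 6 at 103. Reads of 3' ends number about 1 per transcript whatever its length. The division therefore lowers long genes such as GstS1 and does not correct their CPM ranks. Of the other members, 18 averaged 10 to 100 CPM and 9 averaged 1 to 10 CPM. GstD4 and GstD6 averaged under 1 CPM over all libraries, with highest values of 3.34 and 2.93 CPM, 172 and 95 counts in total and no count in 12 and 22 of the 36 libraries. A member entered a test only if it passed the filter on low counts, so 33 members were tested in females (not GstD6 or GstD11), 34 in males (not GstD4), 33 among air libraries (not GstD4 or GstD6) and 34 among exposed libraries (not GstD6).

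**Figure D1:**
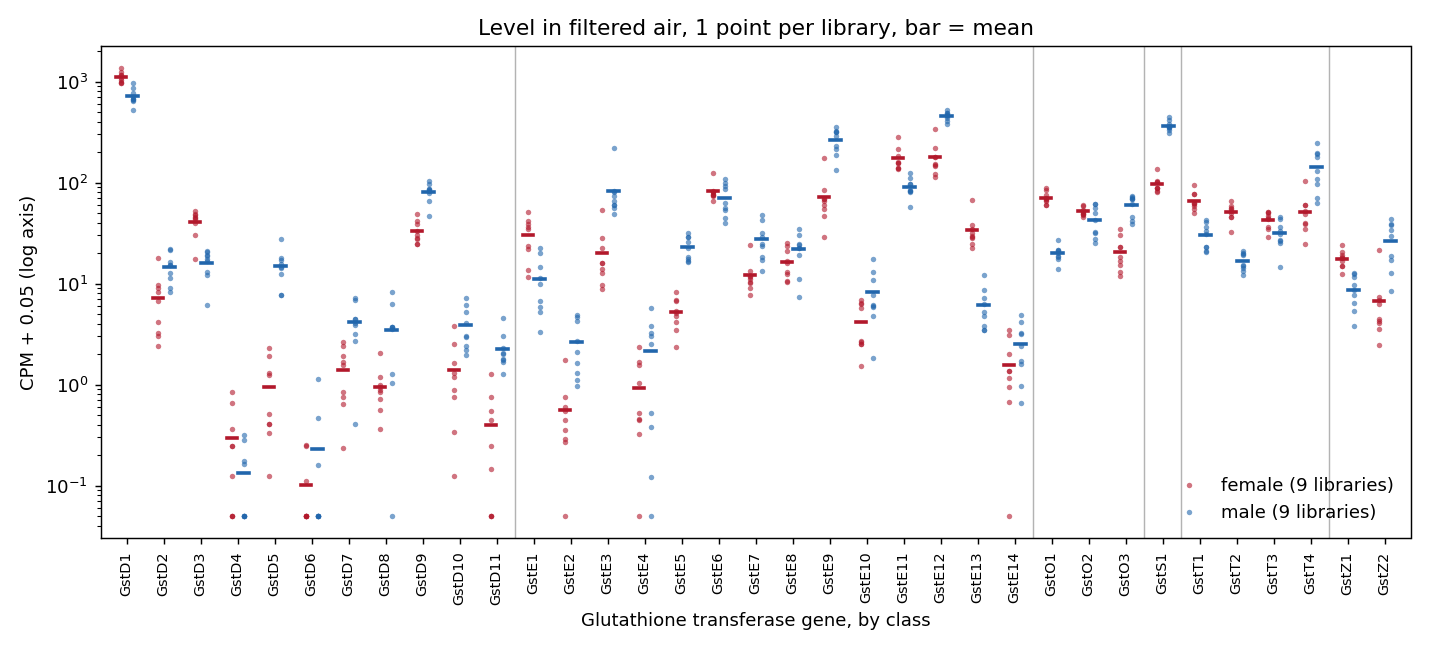
Level of each of the 35 genes in filtered air, as CPM plus 0.05 on a log axis, with 1 point for each of 9 female and 9 male libraries and a bar at the mean. GstD1 lies above the other genes in both sexes, GstD4 and GstD6 lie lowest, and the sexes separate in opposite directions for genes such as GstE13 and GstS1.

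The composition of the family differed between the sexes. In air, class D held 52.2% of the family's summed CPM in females and 32.1% in males, class E 27.1% against 39.8%, and class S 4.20% against 14.2%. Summed over all 35 genes, the level was 2297 ± 352 CPM in air females and 2667 ± 390 CPM in air males (SD, n = 9 each). In exposed flies the sums were 2267 ± 242 CPM in females and 3027 ± 590 CPM in males. Class D alone ranged from 1049 to 1438 CPM in air females and from 643 to 1112 CPM in air males, so the ranges overlapped. GstD1 made up most of that sum, with a mean of 1104 of 1190 CPM in air females and 716 of 856 CPM in air males. Of the 9 class D genes tested in air, 2 were higher in females and 7 in males by the edgeR test given below. Class S, which is GstS1, did not overlap, at 80.4 to 137 CPM in females and 308 to 447 CPM in males.

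**Figure D2:**
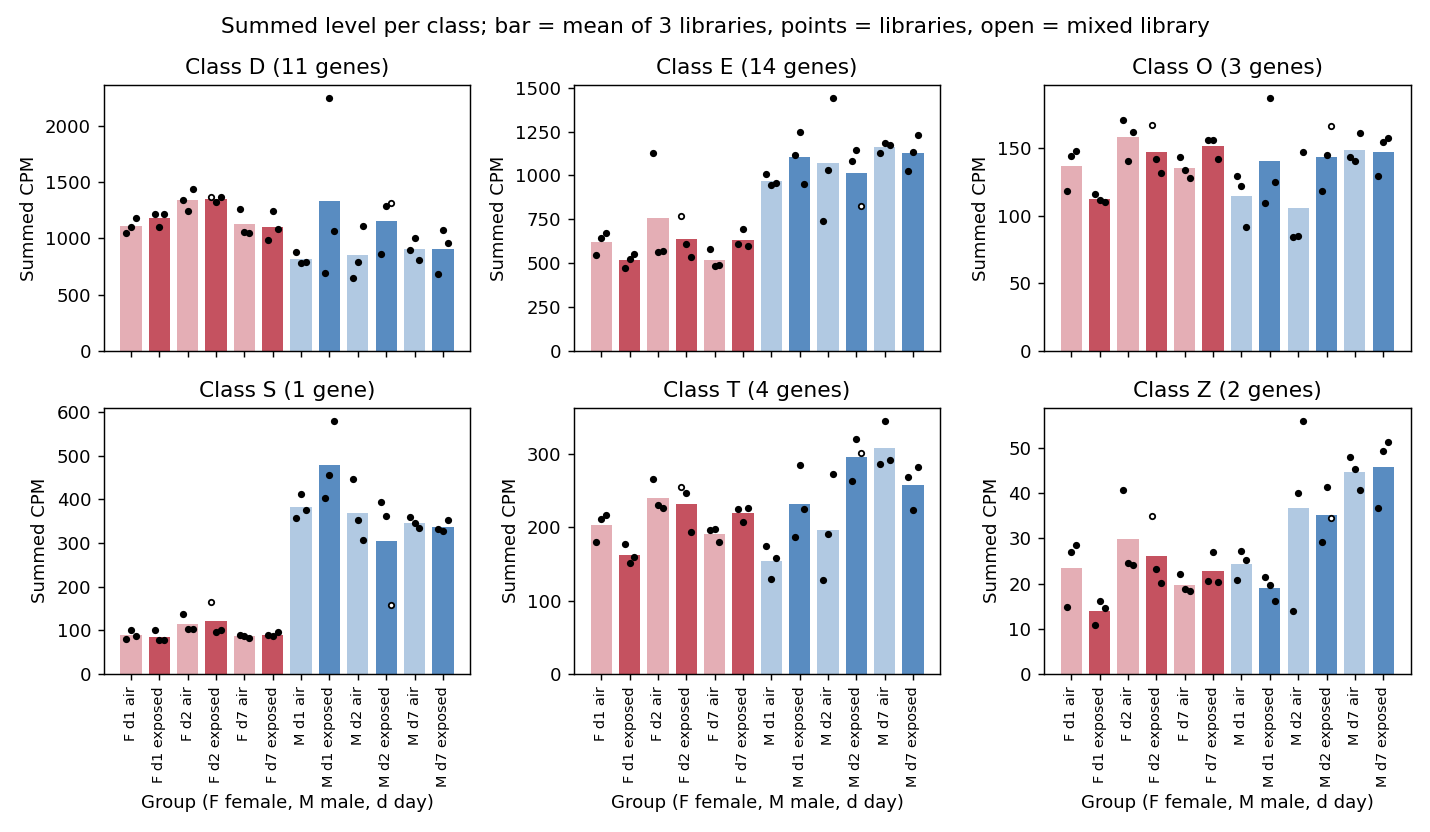
Summed CPM of each class in the 12 groups, with bars at the mean of 3 libraries, points for libraries and open points for the mixed libraries. Class E and class S stand higher in males in each group mean, class D stands higher in females in air, and 1 exposed male library of day 1 reaches 2249 CPM in class D.

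Sex bias was widespread and ran in both directions. Of 33 members tested in air, 11 were higher in females and 18 in males (edgeR quasi-likelihood test, mean over 3 days, adjusted p below 0.05). Of all 12852 genes tested, 36.9% were higher in females and 50.4% in males, 87.3% in all, so the members' share was near that of all genes. The median female minus male log2 difference was -1.20 over the members and -0.60 over all genes tested. The sexes did not overlap in 11 members, against 52.2% of all genes. Scaling moved all genes together: with DESeq2 size factors the median of all genes was -0.94 and 9 members were higher in females and 19 in males. Under that scaling GstE6 and GstO2 changed sign, and no other member did. GstT3 (0.17, adjusted p = 0.255) and GstO2 (-0.01, adjusted p = 0.933) lost their calls, GstE8 gained one, and GstD1 kept its call at 0.31.

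Female-biased members were found in every class except sigma. GstE13, an epsilon gene outside the cluster, had 22.3 to 67.5 CPM (median 29.4) in air females and 3.42 to 12.2 CPM (median 5.17) in air males, with no overlap. Its log2 difference was 2.48 (SE 0.24, adjusted p = 8.10e-09). GstO1, of the omega class, which carries thiol transferase and reductase activities, had 59.7 to 87.4 CPM (median 69.4) in females and 13.9 to 26.99 CPM (median 20.2) in males, a difference of 1.86 (SE 0.12, adjusted p = 2.06e-11). The theta neighbours GstT2 and GstT1 differed by 1.63 (SE 0.15, adjusted p = 3.21e-09) and 1.17 (SE 0.14, adjusted p = 1.75e-07). GstE1 differed by 1.55 (SE 0.34, adjusted p = 2.78e-04) and GstD3 by 1.36 (SE 0.21, adjusted p = 4.86e-06). Both of these overlapped between the sexes. GstZ1 (1.05), GstE11 (0.97), GstD1 (0.64), GstT3 (0.52) and GstO2 (0.32) were past the threshold with smaller log2 differences, of which GstT3 and GstO2 were not past it with size factors. GstD1, the most abundant member, had 963 to 1350.4 CPM (median 1073) in females and 526 to 956 CPM (median 669) in males, so its sexes lay side by side without overlap.

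Male-biased members included the largest fold differences. GstD5, a delta gene of low level, had 0.0736 to 2.27 CPM (median 0.459) in air females and 7.58 to 27.6 CPM (median 14.5) in air males, a log2 difference of -4.08 (SE 0.44, adjusted p = 4.31e-08). GstD11 differed by -2.76 (SE 0.69, adjusted p = 9.94e-04), GstE2 by -2.44 (SE 0.56, adjusted p = 4.66e-04), GstE5 by -2.11 (SE 0.23, adjusted p = 5.32e-08) and GstE3 by -2.11 (SE 0.27, adjusted p = 5.10e-07). Of these 5, GstD5 and GstE5 did not overlap between the sexes. GstZ2, of the zeta class known for maleylacetoacetate isomerase activity in tyrosine breakdown, had 2.43 to 21.6 CPM (median 4.38) in females and 8.47 to 43.6 CPM (median 29.2) in males, a difference of -2.07 (SE 0.30, adjusted p = 2.75e-06). Among abundant members, GstS1 differed by -1.91 (SE 0.11, adjusted p = 4.28e-12), GstE9 by -1.87 (SE 0.23, adjusted p = 2.44e-07), GstT4 by -1.40 (SE 0.20, adjusted p = 2.62e-06) and GstE12 by -1.37 (SE 0.15, adjusted p = 5.99e-08). GstE12 had 114 to 341 CPM (median 154) in females and 381 to 517 CPM (median 462) in males, and GstE9 had 28.6 to 174 CPM (median 65.5) and 133 to 353 CPM (median 286). The highest female value of both genes came from replicate 1 of day 2, which for GstE9 overlapped the males. GstD9, the second most abundant delta gene, had 24.3 to 49.2 CPM (median 30.5) in females and 46.2 to 104 CPM (median 84.3) in males, a difference of -1.26 (SE 0.16, adjusted p = 4.97e-07). GstE4, GstE6, GstE8 and GstE14 did not pass, with log2 differences of -1.20, 0.26, -0.38 and -0.72. GstE14 is known as Noppera-bo, which acts in ecdysteroid synthesis.

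Neighbouring genes carried both opposite and like bias. Of 23 pairs of adjacent members within the clusters, both genes were past the threshold in 13, in opposite directions in 7 and in the same direction in 6. Along the delta cluster from GstD10 to GstD11, GstD1 and GstD3 were higher in females, while GstD2, which lies between them, and the other 6 tested delta genes were higher in males. In the epsilon cluster GstE1 was higher in females, while GstE10, GstE2, GstE3, GstE5, GstE7 and GstE9 were higher in males. GstO1 and GstO2 were higher in females and GstO3 in males, and the neighbours GstT1 and GstT2 were both higher in females. The adjacent zeta genes had 12.3 to 24.1 CPM (median 17.8) of GstZ1 in females and 3.76 to 12.6 CPM (median 8.58) in males, the reverse of GstZ2.

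Sums of tissue markers were compared between the same groups. In air, the summed level of 4 ovary markers was 4505 to 9066 CPM in females and 0.585 to 37.7 CPM in males. Testis markers (3 genes) stood at 921 to 1638 CPM in males and 0.221 to 3.70 CPM in females, and accessory gland markers (3 genes) at 2388 to 9927 and 0.147 to 6.35 CPM. The sum of 2 muscle markers was 297 to 632 CPM in males and 58.6 to 113 CPM in females, and that of 4 Malpighian tubule markers 277 to 471 and 56.5 to 141 CPM. The sum of 2 neuron markers was 108 to 262 CPM in males and 14.7 to 55.6 CPM in females, also without overlap. The sexes overlapped for 3 fat body markers, at 12.3 to 247 CPM in males and 9.16 to 223 CPM in females, and for 17 midgut digestive enzymes, at 3506 to 20113 and 1996 to 20083 CPM. The part of these tissues in the sex bias of the family was not tested.

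Sex bias in exposed flies ran in the same directions for nearly all members. Of 34 members tested there, 7 were higher in females and 20 in males, against 34.5% and 51.3% of all genes (85.9% in either direction). The groups did not overlap in 4 members and in 15.3% of all genes. Without the mixed libraries 9 were higher in females and 20 in males. Of 33 members tested in both arms, 32 had the same direction, and the 25 past the threshold in both arms all had the same direction. The exception was GstE6, at 0.26 in air and -0.01 in exposed flies, past the threshold in neither. In exposed flies GstO2 changed sign with size factors, and GstE6 with library totals and without the mixed libraries. GstE4 differed by -3.51 (SE 0.83, adjusted p = 0.00106) in exposed flies, and GstE13 by 1.61 (SE 0.28, adjusted p = 7.93e-05), GstO1 by 1.21 (SE 0.23, adjusted p = 1.85e-04) and GstD5 by -3.05 (SE 0.52, adjusted p = 7.70e-05). With both mixed libraries left out the first 3 of these log2 differences were -3.92, 1.93 and 1.51. GstD11 moved from -3.30 to -4.95 without them, over 1.5 times its size, and GstE2 from -3.14 to -4.88 without day 1 exposed female replicate 2. For the remaining members named by fold, the differences were -2.12 for GstE3, -2.04 for GstZ2, 1.03 for GstT2, 0.74 for GstZ1, 0.72 for GstT1 and 0.62 for GstE11. In the mixed library titled male, GstS1 stood at 159 CPM, below the 326 to 581 CPM of the other 8 exposed male libraries, and GstE13 at 29.1 CPM, above their 3.69 to 10.2 CPM. No member's sex difference in air changed over the days in the edgeR test (smallest adjusted p = 0.202, GstT4; 0.0934% of all genes passed). At an unadjusted p below 0.05 there were 5 members and 11.5% of all genes, and DESeq2 called 1 member, GstT4.

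**Figure D3:**
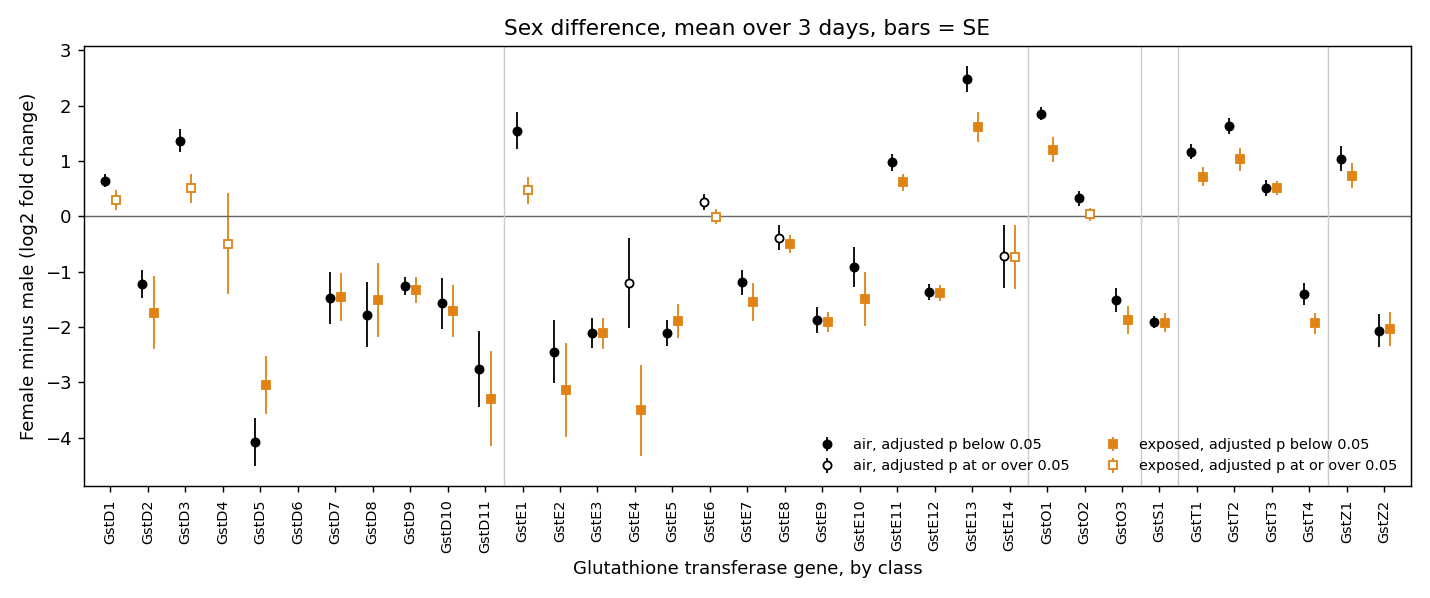
Female minus male log2 fold change of each member, mean over 3 days, in air (circles) and in exposed flies (squares), with bars for the standard error and filled symbols for adjusted p below 0.05. GstE13, at 2.48 in air and 1.61 in exposed flies, lies highest and GstD5, at -4.08 and -3.05, lies lowest in air.

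Exposure to CMIT/MIT changed no member at an adjusted p below 0.05 in any of the 6 comparisons of exposed with air flies. Over all genes tested, 0.263% passed in females on day 1, 0.455% on day 2 and 0.0101% on day 7, and 0% in males on each day. Members with an unadjusted p below 0.05 numbered 8, 1 and 5 of 33 in females on days 1, 2 and 7, where all genes gave 12.7%, 9.52% and 3.28%. In males they numbered 4, 5 and 0 of 34, where all genes gave 3.17%, 21.8% and 0.932%. By the threshold of the series text (over 1.5-fold at an unadjusted p below 0.05) 8, 0 and 5 members stood out in females and 4, 5 and 0 in males, against 9.63%, 7.09% and 2.7%, and 2.9%, 21.4% and 0.925%, of all genes. DESeq2 called 2 members in females on day 1, 1 in males on day 2 and 0 in the other 4 comparisons. Groups did not overlap in 6, 0 and 7 members in females, against 16.6%, 10.9% and 18.3% of all genes, and in 3, 2 and 3 members in males, against 13.2%, 11.5% and 8.45%. The median exposed minus air log2 fold change of the members was -0.17, -0.17 and 0.30 in females and 0.26, 0.37 and -0.02 in males, whereas the median of all genes was within 0.01 of 0 except in males on day 2, at 0.07.

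**Figure D4:**
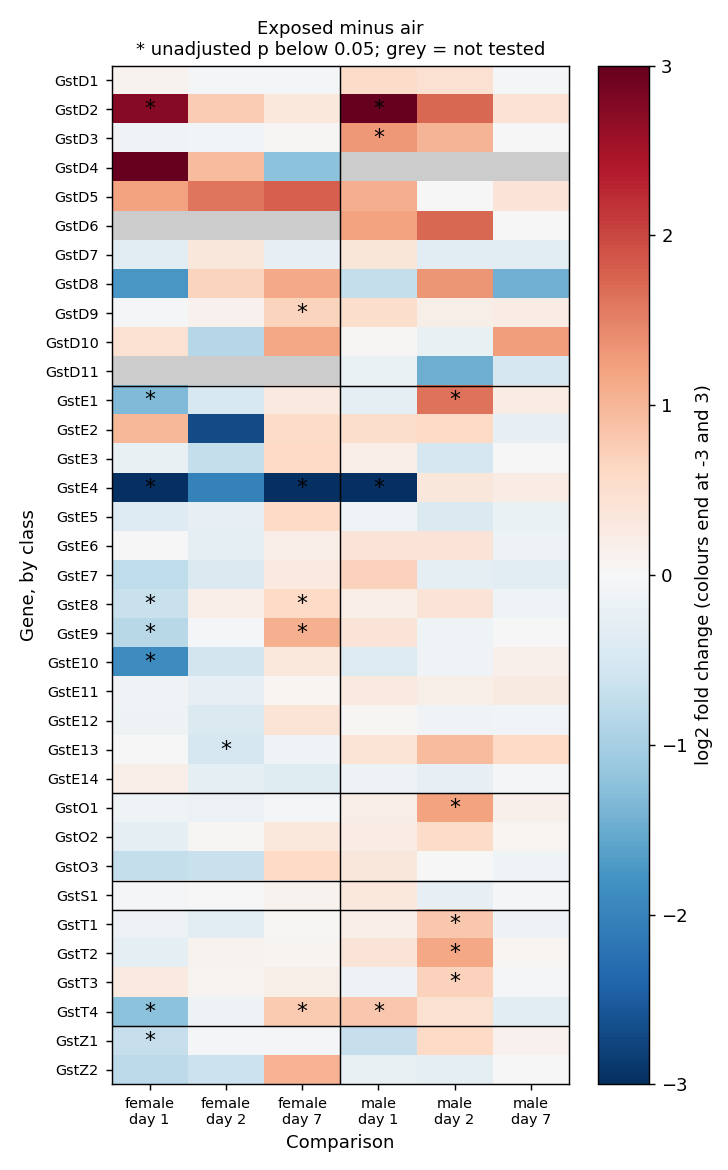
Exposed minus air log2 fold change of each member in 6 comparisons, red for higher and blue for lower in exposed flies, with grey for members not tested and stars for unadjusted p below 0.05. GstD2 is red on day 1 in both sexes, GstE4 is blue there, and GstT4 is blue in day 1 females and red in day 1 males.

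The delta gene GstD2 had the smallest p in both sexes on day 1. In day 1 females it measured 2.36, 3.16 and 4.08 CPM in air and 11.9, 36.9 and 13.6 CPM after exposure. All 3 exposed libraries lay above all 3 air libraries, with means of 3.20 ± 0.862 and 20.8 ± 13.98 CPM (SD, n = 3). Exposed minus air was 2.73 (SE 0.60, adjusted p = 0.0600) on the log2 scale, just outside the threshold. It was inside with library totals as the only scaling (adjusted p = 0.0343), with no filter on low counts (0.0103), with only the 6 libraries compared (0.0078), without the mixed libraries (0.0457) and with DESeq2 (0.000339). Leaving out single libraries gave 0.0528 to 0.184 for GstD2, and a replicate block in the model also left it outside the threshold. In day 1 males it measured 21.7, 8.25 and 15.1 CPM in air and 24.9, 328 and 32.4 CPM after exposure, again without overlap. One exposed library, replicate 2, was about an order of magnitude above the others. Exposed minus air was 3.08 (SE 1.00, adjusted p = 1.00) on the log2 scale, and without replicate 2 it was 0.92 (adjusted p = 1.00). On later days GstD2 overlapped between arms: in males it measured 13.1, 108 and 7.11 CPM in exposed flies on day 2 and 4.74, 46.4 and 12.7 CPM on day 7, against 15.2, 11.3 and 12.7 and 8.90, 16.4 and 21.5 CPM in air. Exposed females had 6.70, 18.95 and 4.73 CPM on day 2 and 8.19, 21.3 and 14.9 CPM on day 7, against 8.15, 2.98 and 6.65 and 17.98, 9.06 and 9.55 CPM in air. The replicate numbered 2 was the highest for GstD2 in 6 of 6 exposed groups and in 0 of 6 air groups, an observation made after the values were seen. No other member showed that in all 6 exposed groups, and the labels do not say what the replicate numbers share.

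Other delta genes were high in the same exposed male library of day 1. GstD1 measured 534, 1598 and 885 CPM in exposed day 1 males against 705, 653 and 664 CPM in air. GstD3 measured 11.2, 58.1 and 28.00 against 20.5, 12.1 and 6.11 CPM, with a log2 difference of 1.31 (SE 0.49, adjusted p = 1.00) that was 0.59 without replicate 2. GstD5 measured 11.05, 51.02 and 18.8 against 17.03, 7.71 and 12.5 CPM, and GstD9 103, 189 and 94.4 against 104, 78.4 and 84.3 CPM. In each of the 4 genes replicate 2 was the highest exposed library, and the other exposed libraries reached into or near the air range. High values in that library were not confined to class D. In exposed day 1 males GstO3 measured 47.6, 128 and 58.5 CPM, GstE7 16.9, 58.2 and 27.9 CPM and GstE3 58.2, 102 and 60.1 CPM. GstE12 (528, 485 and 466 CPM) and GstS1 (402, 456 and 581 CPM) were not highest in replicate 2. GstD4, which is hardly expressed in air, had 3 counts in day 1 air females and 40 in exposed females, which is 11.9-fold at equal depth (95% counting interval 3.80 to 60.3). In males GstD4 had 4 counts in air and 47 after exposure on day 1 (13.8-fold, 5.04 to 52.6). These day 1 counts were uneven, at 1.01, 1.76 and 0 CPM in exposed females and 0, 3.34 and 0.881 CPM in exposed males, so the intervals, which cover counting error only, are narrower than the spread between libraries. Day 2 males had 1 count of GstD4 in air and 22 after exposure (26.2-fold, 4.24 to 1083, counting error only). The exposed day 2 males measured 1.29, 0.902 and 0.229 CPM, the last in the mixed library, without overlap with air. In day 2 females there were 14 counts in air and 19 after exposure. On day 7 there were 10 and 4 counts in females and 3 and 5 in males.

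The theta gene GstT4, X-linked, differed in opposite directions in day 1 females and males, without passing the test in either. Day 1 females had 35.03, 60.6 and 60.5 CPM in air and 25.7, 25.4 and 14.3 CPM after exposure, with no overlap and a log2 difference of -1.23 (SE 0.33, adjusted p = 0.131). DESeq2 (adjusted p = 0.0221), library totals (0.0484), no filter (0.0416) and only the 6 libraries compared (0.0355) put GstT4 past the threshold. Leaving out single libraries gave an adjusted p of 0.130 to 0.318 in day 1 females, and a replicate block in the model also left GstT4 outside. Day 1 males had 108, 69.95 and 95.9 CPM in air and 116, 221 and 149 CPM after exposure, higher in each exposed library, with 0.81 (SE 0.34, adjusted p = 1.00). Without exposed replicate 2 this was 0.52. The female minus male difference of these 2 effects was -2.08 on the log2 scale (adjusted p = 0.27; unadjusted p = 3.22e-04), and DESeq2 called it. On day 7 females had 39.5, 38.9 and 24.8 CPM in air and 53.7, 61.9 and 56.8 CPM after exposure, higher in each exposed library (0.78, SE 0.33, adjusted p = 1.00). Males of day 7 had 197, 245 and 191 CPM in air and 175, 140.0 and 185 CPM after exposure, lower in each exposed library. Their mean difference was -0.33 (SE 0.33, adjusted p = 1.00), which was -0.21 without air replicate 2. On day 2 the arms overlapped in both sexes, at 104, 51.9 and 48.9 against 79.8, 75.3 and 39.3 CPM in females and 62.5, 129 and 178 against 179, 214 and 108 CPM in males.

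Several epsilon genes lay in the same order as GstT4 in females, none of them past the threshold. GstE9 measured 69.3, 84.6 and 68.1 CPM in day 1 air females and 42.6, 42.8 and 38.7 CPM after exposure, a log2 fold change of -0.82. By day 7 the order was the reverse, at 65.5, 46.2 and 28.6 CPM in air and 78.9, 119 and 87.97 CPM after exposure (1.06, SE 0.38, adjusted p = 1.00). Neither day overlapped between arms. GstE8 followed the same order without overlap, with -0.67 on day 1 and 0.61 on day 7. GstE10 (-1.88) and GstT2 (-0.29) were also lower without overlap on day 1, and GstE1 (-1.31) and GstZ1 (-0.70) were lower with overlap. On day 7 GstE12 (0.42), GstO2 (0.32) and GstZ2 (1.05) were higher without overlap, and GstD9 had 0.66 (SE 0.29, adjusted p = 1.00), which was 0.36 without exposed replicate 2. Of all genes tested in females, 16.6% did not overlap between arms on day 1 and 18.3% on day 7, near the share among the members. Over class E, 4 of 14 genes had a positive log2 fold change on day 1 (median -0.29; 49.4% of all genes were positive) and 11 of 14 on day 7 (median 0.31; 49.3%). The 3 that were negative on day 7 were GstE4 (-3.69), GstE13 (-0.10) and GstE14 (-0.37). GstE4 had 0, 32 and 4 counts in day 1 air females and 0, 2 and 0 after exposure, so 1 air library held most of them and the arms overlapped. Its log2 difference was -3.97 (SE 1.47, adjusted p = 0.254), and it was -1.75 without air replicate 2 and -6.45 without exposed replicate 2. On day 7 females had 10, 4 and 3 counts of GstE4 in air and 0, 0 and 1 after exposure. Day 1 males had 38, 84 and 1 counts in air and 6, 3 and 1 after exposure, a log2 fold change of -3.30 with overlap between the arms.

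Midgut and fat body marker sums lay in the same order as these female genes. The 17 digestive enzyme genes summed to 4560 to 7478 CPM in day 1 air females and 1282 to 1996 CPM after exposure, and to 1996 to 4232 CPM and 4677 to 5249 CPM on day 7. In day 2 air females 1 library, replicate 1, reached 20083 CPM against 4798 and 5412 CPM in the other two. The same library held the highest female values in air of GstT4 (104 CPM), GstE9 (174 CPM) and GstZ2 (21.6 CPM). Many other members were highest there too, such as GstE12 (341 CPM), GstE11 (280 CPM), GstS1 (137 CPM) and GstO1 (87.4 CPM). The family sum of that library, 3080 CPM, was also the highest among air females. Some members were not highest there, such as GstD1 (1228 CPM) and GstT2 (32.2 CPM, the lowest air female value). In males the digestive enzyme sum ran from 10689 to 13858 CPM in day 1 air flies and from 8809 to 15803 CPM after exposure. On day 7 it was lower in exposed males without overlap, at 12418 to 20113 CPM in air and 9665 to 11561 CPM after exposure. None of the 17 markers was at 0 in any of these groups, except 1 in exposed day 7 males. The sum of the 3 fat body markers was 126 to 223 CPM in day 1 air females and 49.5 to 98.0 CPM after exposure, where 2 of the 3 were at 0, and 9.16 to 38.8 CPM and 64.8 to 144 CPM on day 7. The muscle sum lay the other way on day 1, at 58.6 to 83.1 CPM in air and 126 to 164 CPM after exposure, and so did the neuron sum, at 14.7 to 27.7 and 30.1 to 50.4 CPM. The muscle and neuron sums overlapped on day 7. The sum of 4 Malpighian tubule markers overlapped on day 1, at 74.0 to 89.9 CPM in air females and 61.9 to 150 CPM after exposure. On day 7 it lay the other way without overlap, at 90.5 to 141 CPM in air females and 64.0 to 83.0 CPM after exposure. The part of these tissues in the values of GstT4 and the epsilon genes was not tested.

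In day 2 females no member stood apart. GstE13 had the smallest p, at 67.5, 34.9 and 38.2 CPM in air and 38.2, 33.3 and 32.1 CPM after exposure (-0.50, SE 0.24, adjusted p = 0.521), where the arms overlapped and the air replicate 1 was the highest. Without air replicate 1 that difference was -0.08. GstT1, at 94.9, 76.2 and 76.1 against 77.4, 69.7 and 58.99 CPM, had -0.32 (SE 0.17, adjusted p = 0.595), which was -0.15 without air replicate 1, and GstE6 had -0.30 (SE 0.18, adjusted p = 0.642), which was -0.01 without the same library.

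In day 2 males the members with the smallest p were ones that are higher in females, and the mixed library was the highest exposed library for each of the 3 named. GstE1 measured 3.25, 11.2 and 9.89 CPM in air and 16.9, 24.8 and 31.98 CPM after exposure, with no overlap and a log2 difference of 1.64 (SE 0.52, adjusted p = 0.0967). Without the mixed library it was 1.39 (adjusted p = 0.599), while DESeq2 on all libraries gave an adjusted p of 0.0299 and leaving out exposed replicate 1 gave 0.025. GstO1 measured 17.4, 13.9 and 20.2 CPM in air and 19.7, 19.5 and 75.9 CPM after exposure, where the last value is the mixed library. The log2 difference of GstO1 was 1.21 (SE 0.41, adjusted p = 0.110) with and 0.20 without that library. GstT2, at 12.2, 13.3 and 21.2 and 19.8, 21.4 and 60.2 CPM, had 1.16 (SE 0.39, adjusted p = 0.111) with and 0.42 without it. Leaving out exposed replicate 1 or 2 instead, which leaves the mixed library and 1 other, put GstO1 (adjusted p = 0.0125 and 0.0267) and GstT2 (0.0171 and 0.0433) past the threshold. On day 7 in males the smallest p belonged to GstD10, at 2.17, 2.35 and 2.95 CPM in air and 5.04, 8.49 and 4.45 CPM after exposure (1.26, SE 0.67, adjusted p = 1.00). GstD8, at 3.49, 8.18 and 3.65 and 0.705, 2.52 and 2.47 CPM, had -1.44 (SE 1.13, adjusted p = 1.00), which was -0.92 without air replicate 2. Neither gene overlapped between arms, and both lie under 10 CPM.

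**Figure D5:**
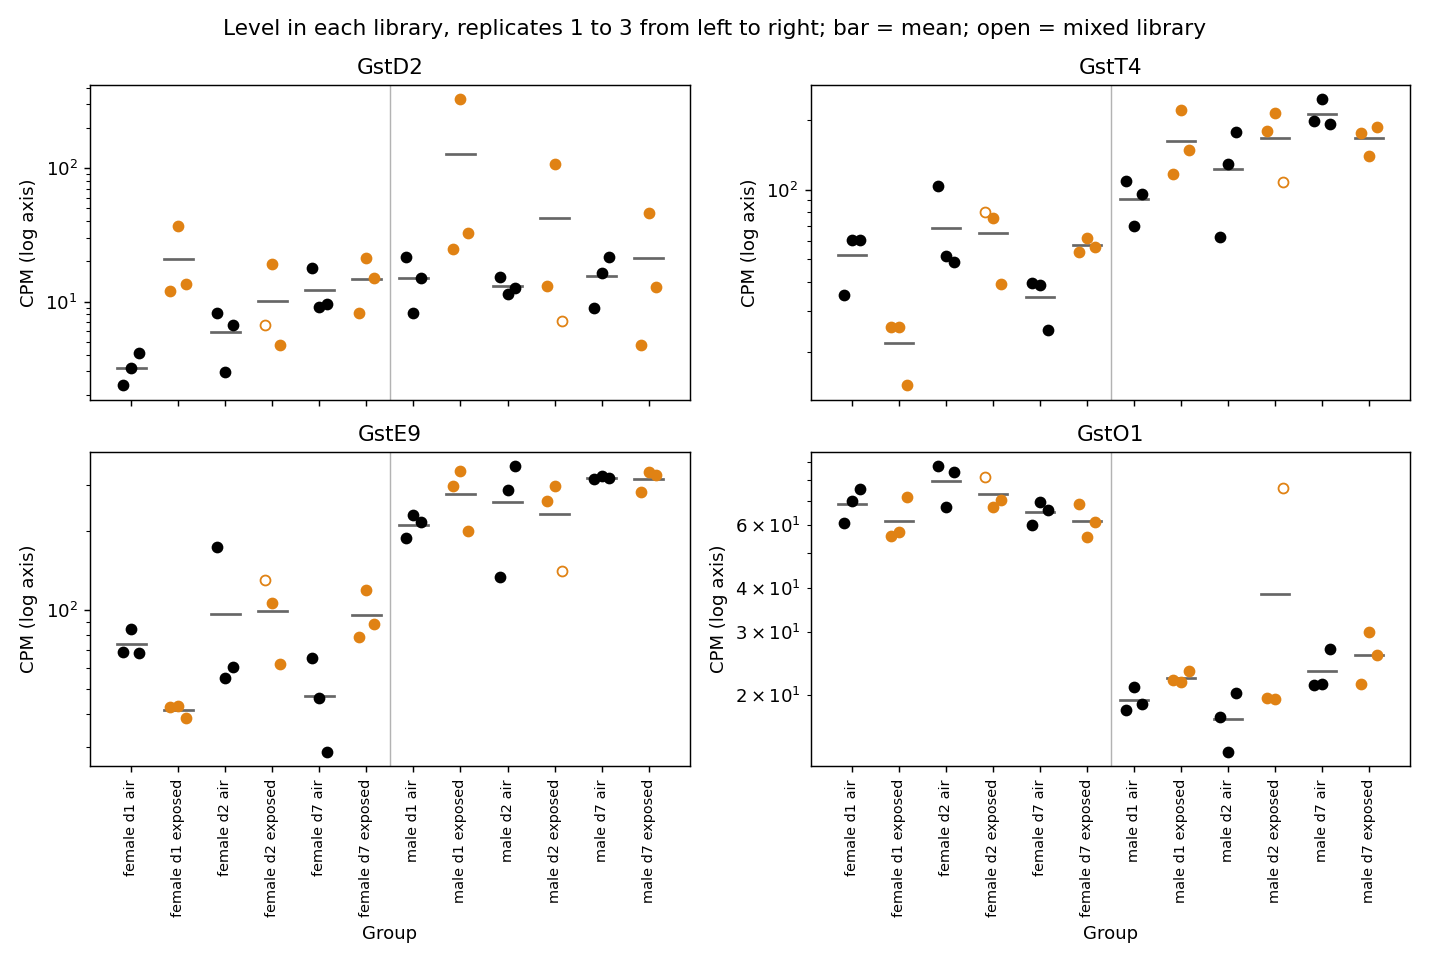
CPM on a log axis of GstD2, GstT4, GstE9 and GstO1 in all 36 libraries, black for air, orange for exposed, open for the mixed libraries, with a bar at each group mean. GstD2 reaches 328 CPM in 1 exposed male library of day 1, GstT4 and GstE9 lie lower in exposed than in air females on day 1, and GstO1 separates the sexes except for the mixed library titled male at 75.9 CPM.

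Whether the response differed between the sexes was tested over all 36 libraries, and no member passed on any day. The smallest adjusted p was 0.27 on day 1 (GstT4), 0.0516 on day 2 (GstO1) and 1.00 on day 7, where 0.0151%, 12.2% and 0% of all genes passed. Unadjusted p-values below 0.05 numbered 4, 5 and 1 of 35 members, against 8.04%, 28.7% and 1.32% of all genes, and DESeq2 called 1, 0 and 0. The day 2 comparison contains both mixed libraries. Nor did any member's exposure effect change over the days in females (0.445% of all genes passed) or males (0%). The smallest adjusted p was 0.138 for GstT4 in females and 0.647 for GstE1 in males, with 5 and 1 members at an unadjusted p below 0.05 (10.7% and 7.65% of all genes) and 1 and 0 called by DESeq2.

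Few differences among the days themselves passed the test. In air, no member differed among days 1, 2 and 7 in females (smallest adjusted p = 0.23, GstE13; 0.131% of all genes passed) or in males (0.276, GstT4; 0.155%). Unadjusted p-values below 0.05 numbered 10 and 5 there, against 14% and 8.31% of all genes, and DESeq2 called 0 in both. Among exposed males none passed either (0.0717, GstT3; 0.855% of all genes), with 4 at an unadjusted p below 0.05 (19.5% of all genes) and 1, GstT3, called by DESeq2. Among exposed females 1 of 33 members passed, against 3.68% of all genes, and 7 had an unadjusted p below 0.05 (19.2% of all genes). The 1 past the threshold was GstT4, with 21.8 ± 6.48 CPM on day 1, 64.8 ± 22.2 CPM on day 2 and 57.5 ± 4.13 CPM on day 7 (SD, n = 3), and its level on day 7 was 1.34 higher than on day 1 on the log2 scale (adjusted p of the test over days = 0.0421). The call was lost without the mixed library of day 2 (adjusted p = 0.0598). It was also lost when any other single exposed library was left out except replicate 3 of day 2, over a range of 0.0198 to 0.193 for GstT4.

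Other genes of glutathione metabolism, 24 by a list of synthesis, redox, regulator, export and NADPH supply genes, also showed no exposure call. Of these, 20 were tested in females and 23 in males, and none passed in an exposure comparison. At an unadjusted p below 0.05 there were 3, 2 and 0 in females and 0, 2 and 0 in males on days 1, 2 and 7. All genes gave 12.7%, 9.52% and 3.28% in females and 3.17%, 21.8% and 0.932% in males. PHGPx, a gene of the glutathione peroxidase family, had the smallest p in day 1 females, at 189, 184 and 156 CPM in air and 199, 243 and 289 CPM after exposure (0.48, SE 0.17, adjusted p = 0.235). Gclm, the modifier subunit of the rate-limiting enzyme of glutathione synthesis, had -0.43 (SE 0.18, adjusted p = 0.472) in day 2 females. Pgd, a source of NADPH, had -0.26 (SE 0.16, adjusted p = 1.00) in day 7 females and 1.01 (SE 0.33, adjusted p = 0.101) in day 2 males, where the mixed library was the highest at 279 CPM. In day 1 males se had -0.51 (SE 0.36, adjusted p = 1.00), and in day 7 males Gclc, the catalytic subunit, had -0.33 (SE 0.25, adjusted p = 1.00). Between the sexes in air, 8 of the 23 tested genes were higher in females and 13 in males, a share near the 36.9% and 50.4% of all genes. Ggt-1, a gamma-glutamyl transferase, was higher in females by 2.08 and se was higher in males, with a female minus male log2 difference of -2.15. Gclm passed over the days in exposed females (adjusted p = 0.0429), a set that includes a mixed library. Grx1t and Trxr-2 were both far higher in males than in females. They passed for a sex difference of the exposure effect on day 2 (adjusted p = 0.0314 and 0.0319), which contains both mixed libraries. Among day 2 females only the mixed library had counts of Grx1t and Trxr-2, at 5.47 and 1.79 CPM. The mixed library titled male was the lowest day 2 male library for both, at 8.14 and 1.15 CPM. These tests of other glutathione genes were not repeated without the mixed libraries.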

How the data were processed

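Trizol was used to extract total RNA from whole flies, and a Quant-Seq kit, which reads 3' ends, to build libraries (both per the labels' protocols). The authors deposited unnormalized counts of reads for each gene. Reads were handled with fastp, STAR and HTSeq on dm6, per the submitters' processing notes; versions, annotation release, strand setting and the treatment of reads that map to several copies: not given in the sources used here. A 3' end library gives about 1 read per transcript end, so CPM was not corrected for length. CPM per kb of annotated exon (BDGP6.54 annotation) is given beside ranks between genes for reference only. Each file held 17583 entries, 1 of them without a symbol, which stayed out of totals and tests. Its share is at most 0.000107% of a library.

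Tests were edgeR 4.0.16 quasi-likelihood F tests in R 4.3.3, with filterByExpr (minimum count 10, minimum total 15), TMM scaling, a prior count of 0.125 and Benjamini-Hochberg adjustment over all genes tested, at a threshold of 0.05. Exposure and day were fitted within each sex (18 libraries), sex within each arm (18 libraries), and differences of effects between sexes on all 36. Standard errors are the log2 fold change divided by the square root of F. Levels (CPM) were TMM-scaled across the 36 libraries together, and counting intervals are exact at 95%. The code was tested on data simulated from this design.

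Members named in full are those with the smallest p in each exposure comparison (3 each), up to 6 per direction with the largest fold among those past the threshold between sexes, members past the threshold over days, and the 2 most abundant of each class. Other members given with values, such as GstD5 and GstD4 in exposed males, GstE9 on day 1 and GstD10, were added after their values were seen or follow from several of these rules. Members and lists were chosen with earlier results of these data known. Alternatives were DESeq2 1.42.0, its size factors, library totals, no filter, 5 CPM in 3 libraries, other libraries in the fit, the series text's own threshold (a change over 1.5-fold at p below 0.05, unadjusted), a replicate block, leaving out each library, and leaving out the 2 mixed libraries. No pair of replicates was a repeat of 1 library (chi-square per degree of freedom at least 9.94 in 36 pairs). No member sequence is shown.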

Additional observations from a re-analysis of the deposited data

How the results depend on the processing

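Of 354 recomputed counts of members past the threshold, 308 equalled the reported count or stayed within 1.5 times it, and 46 moved further. A count of 0 that stayed at 0 was scored as equal. Sex counts ranged from 27 to 30 members in air and from 25 to 29 in exposed flies when single libraries were left out, and from 23 to 29 and 25 to 29 under the other settings. In day 1 females, where the reported count was 0, DESeq2, library totals and no filter gave 2 members, only the 6 libraries compared gave 3, and leaving out the mixed libraries gave 1. In day 2 males all 36 libraries gave 2, DESeq2 gave 1, and leaving out single libraries gave 0 to 5, the 5 without exposed replicate 1. DESeq2 gave 1 member for the sex difference over days in air, 4 for days in exposed females, 1 for days in exposed males, 1 for the sex difference of the exposure effect on day 1 and 1 for the exposure effect over days in females. For days in exposed females no filter gave 3, only the 9 libraries compared gave 2, leaving out the mixed libraries gave 0, and leaving out single libraries gave 0 to 1. Leaving out single libraries gave 0 to 2 for days in exposed males (2 without replicate 1 or replicate 2 of day 2), 0 to 5 for the sex difference of the exposure effect on day 2 (5 without exposed male replicate 1) and 0 to 2 for the exposure effect over days in females (2 without air replicate 1 of day 2), where library totals and no filter gave 1. The threshold of the series text, which adjusts for no multiple testing, gave 8 members in day 1 females, 5 in day 7 females, 4 in day 1 males and 5 in day 2 males. The shares of all genes were 9.63%, 2.7%, 2.9% and 21.4%. That threshold gave 5 for the sex difference over days, 8, 6, 5 and 4 for days in air females, exposed females, air males and exposed males, 4, 5 and 1 for the sex difference of the exposure effect on days 1, 2 and 7, and 5 and 1 for the exposure effect over days in females and males. At an unadjusted p below 0.05 and any fold, all genes gave 11.5%, then 14%, 19.2%, 8.31% and 19.5%, then 8.04%, 28.7% and 1.32%, then 10.7% and 7.65%. Shares of all genes under the other settings of this paragraph are not given here. The cause of these changes was not tested.

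Correlations of deviations from group means between libraries of like replicate number were mostly low. They were -0.129 to 0.377 between exposed and air libraries (3 of 18 over 0.1). Between females and males they were -0.303 to 0.639 (4 of 18), and between days -0.235 to 0.326 (8 of 36). The highest, 0.639 and 0.609, came from females with males in exposed day 2 replicates 1 and 3, each a pair with a mixed library. Whether replicate numbers share a batch was not tested. With the replicate block the 6 exposure counts stayed at 0, the sex counts were 27 in air and 26 in exposed flies, and days in exposed females gave 1.

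With 3 libraries a group and as few as 4681333 counts, changes of members under 1 CPM were not detectable unless very large. Both mixed libraries belong to day 2 exposed flies and also enter the shared spread of other days.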
